A study of Mus musculus with 4 samples.

Results

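The genes described here are Toll-like receptors and the proteins that work directly with them, chosen by symbol from a list. The list was drawn up with earlier results of these data known. They were 10 of the 28692 genes in the gene table: the surface receptors Tlr1, Tlr2, Tlr4 and Tlr6, the endosomal receptors Tlr3, Tlr7, Tlr9 and Tlr13, the lipopolysaccharide co-receptor Cd14 and the signalling adaptor Myd88. They were measured by single-cell RNA sequencing in 4 libraries that the labels place in 1 group. Each library came from the cortex and hippocampus of a male C57BL/6J mouse aged 90 days. Every mouse had been given PBS (a saline vehicle) through the tail vein, 24 hours before sacrifice according to the labels, although the study's methods give another interval. The tissue was ground in a cold Dounce homogeniser, with no enzyme, and live cells positive for CD45 and CD11b, 2 surface proteins of myeloid cells, were sorted. No enzymatic or inhibitor-treated group was analysed here, so no treatment was compared. The questions were how strongly each gene was detected, how far surface and endosomal receptors differed, and whether their levels differed between cell states within a library.

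Toll-like receptors are the pattern recognition receptors with which macrophages, and microglia among them, sense molecules of microbes and of damaged cells. The surface receptors bind mainly lipids and lipoproteins: TLR2 pairs with TLR1 or TLR6 to bind lipopeptides, and TLR4, with its co-receptor MD-2 (encoded by Ly96) and CD14, binds bacterial lipopolysaccharide. The endosomal receptors bind nucleic acids: TLR3 binds double-stranded RNA, TLR7 single-stranded RNA, TLR9 unmethylated CpG DNA, and TLR13, which mice have and humans lack, bacterial ribosomal RNA. All of them except TLR3 signal through the adaptor MYD88, and the outcome is activation of NF-κB and interferon regulatory factors.

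Upstream sequences are shown for Tlr2, the receptor whose level differed between cell states in the main tests, for Tlr3, whose level differed in a test added later, and for Myd88, the shared adaptor. They are the 250 bases before the annotated start in RefSeq (GRCm38.p6), on the strand of the gene, at chr3:83841609-83841858 (minus strand) for Tlr2, chr8:45410381-45410630 (minus strand) for Tlr3 and chr9:119340019-119340268 (minus strand) for Myd88. The GENCODE M21 coordinates given below start these genes further upstream. Those gene spans contain the whole Tlr3 and Myd88 windows and part of the Tlr2 window. Capitals mark matches, on either strand, to the kappaB consensus, to a pair of GAAA repeats separated by any 2 bases (the core of an interferon response element, called the GAAA pair here) or to TGANTCA (an AP-1 element).
Tlr2: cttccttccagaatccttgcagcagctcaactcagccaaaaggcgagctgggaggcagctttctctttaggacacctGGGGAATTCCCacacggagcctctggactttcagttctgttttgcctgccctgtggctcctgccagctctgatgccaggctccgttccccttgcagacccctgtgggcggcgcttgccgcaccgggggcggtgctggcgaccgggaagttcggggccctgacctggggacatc
Tlr3: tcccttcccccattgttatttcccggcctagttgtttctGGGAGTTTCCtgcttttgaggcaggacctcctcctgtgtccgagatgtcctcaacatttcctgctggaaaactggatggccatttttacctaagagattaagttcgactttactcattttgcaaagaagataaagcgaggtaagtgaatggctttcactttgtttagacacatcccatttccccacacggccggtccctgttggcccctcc
Myd88: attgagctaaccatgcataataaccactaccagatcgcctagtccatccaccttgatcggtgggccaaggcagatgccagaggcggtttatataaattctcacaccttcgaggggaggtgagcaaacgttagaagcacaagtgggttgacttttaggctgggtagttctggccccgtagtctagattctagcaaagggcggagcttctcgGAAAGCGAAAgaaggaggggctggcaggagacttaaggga
The Tlr2 sequence held 2 overlapping kappaB matches, the Tlr3 sequence 1 kappaB match and the Myd88 sequence 1 GAAA pair. The 3 capitalised stretches overlapped no other motif searched. Among 32851 annotated starts, 7.25% held a kappaB match, 2.98% a GAAA pair and 6.75% a TGANTCA match in a window of the same length. Of the other members with a start in the table, Tlr6 held 2 overlapping GAAA pairs at 1 of its 2 starts, Tlr9 held 1 TGANTCA match, and Tlr1 and Tlr13 held none. A match describes the letters in the window and not binding.

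The 4 libraries held 13138 cell barcodes, of which 13002 were kept: those with 400 or more detected genes and no more than 10% of their UMIs (unique molecular identifiers, 1 per captured RNA molecule) from mitochondrial genes. Library totals ran from 5867333 to 11275195 UMIs, and the median kept cell had between 1905 and 2936 UMIs. Pairs of libraries shared between 6 and 21 barcodes. The summed level of 8 microglial markers ran from 33205 to 34422 CPM (a gene's UMIs scaled to a fixed library total). All 4 neutrophil markers were at 0, and the summed levels of the neuronal, astrocyte, oligodendrocyte, endothelial, lymphocyte and dendritic cell lists did not pass 28.4 CPM in any library, with 1 neuronal, 2 endothelial and 3 lymphocyte markers at 0. Replicate 4 stood apart in 7 immediate early genes (2433 CPM against 939 to 1090 CPM in the others) and in 14 markers of border-associated macrophages, monocytes and antigen presentation (1317 CPM against 273 to 508 CPM). The study describes a sorter clog that kept the last mouse, which it calls Sample 4, longer at room temperature. It reports its ex vivo activation signature, with Fos, Jun, Ccl3 and Ccl4 among the genes, almost only in Sample 4. Ccl3 and Ccl4 also mark a rare microglial state, whose Ccl4-positive cells the study saw in frozen tissue. The sample titles are numbered otherwise and do not state which library is Sample 4, and replicate 4 is the last of them by title. The part of the clog in any value was not tested.

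Among the surface receptors, Tlr2 had the highest level. Tlr2 (ENSMUSG00000027995, chr3:83836272-83841767) measured 106, 106, 88.7 and 94.8 CPM in replicates 1 to 4, a mean of 99.0 ± 8.77 CPM (SD, n = 4). Replicates 1 and 2 were the higher pair. Tlr4 (chr4:66827584-66930284) measured 46.6, 37.5, 44.5 and 59.6 CPM, a mean of 47.1 ± 9.19 CPM, with its highest level in replicate 4. It varied most among the 10 genes, with a coefficient of variation of 19.5% over the libraries against a median of 7.75% over the 7656 genes with a mean of at least 10 CPM. The co-receptors of TLR2 were lower still. Tlr1 (chr5:64924679-64933563) had 21.5 ± 1.39 CPM and Tlr6 (chr5:64952031-64960097) 18.2 ± 1.13 CPM. These neighbouring genes share sequence: 265 of the 3284 windows of 98 bases in Tlr1 transcripts also occur in Tlr6 transcripts, which have 3654, so reads from those windows cannot be assigned to 1 of the pair, and their levels are uncertain to that extent. No other pair of the 10 genes shared a window of this length.

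Among the endosomal receptors, Tlr7 and Tlr13, both on the X chromosome, had the highest levels. Tlr7 (chrX:167304929-167330558) measured 86.6, 77.7, 93.1 and 106 CPM, a mean of 90.9 ± 12.03 CPM. Tlr13 (chrX:106143204-106160493) measured 63.9, 50.9, 74.5 and 78.0 CPM, a mean of 66.8 ± 12.2 CPM. Both were lowest in replicate 2, the library with the most UMIs, and highest in replicate 4. Tlr3 (chr8:45395665-45411080) had 31.3 ± 2.81 CPM and showed the same extremes, 27.9 CPM in replicate 2 and 34.7 CPM in replicate 4. Tlr9 (chr9:106222598-106226883) was close to the limit of measurement, with 123 UMIs in all 4 libraries together and 4.54, 3.64, 3.08 and 3.56 CPM. The exact 95% Poisson interval in replicate 3 (18 UMIs) ran from 1.83 to 4.87 CPM, and the libraries could not be told apart at this depth. Tlr9 was the 1 gene of the 10 that did not reach a mean of 10 CPM, and it was not fitted below.

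Cd14 was the most abundant and the most even of the genes. Cd14 (chr18:36725067-36726798), a lipid-anchored protein that hands lipopolysaccharide to TLR4, measured 510, 515, 483 and 505 CPM, a mean of 503 ± 13.9 CPM and a coefficient of variation of 2.75%. Myd88 (chr9:119335934-119341411) measured 50.3, 60.2, 61.8 and 61.0 CPM, a mean of 58.3 ± 5.38 CPM. Replicate 1 lay below the other 3 libraries by most of the range, with a Dixon ratio of 0.87 on log2(CPM + 1), past the 95% critical value for 4 samples. Myd88 was the only 1 of the 9 genes at 10 CPM or more with a library apart, and the same range test set a library apart for 4.62% of the 7656 genes. With cells of at least 1000 genes, replicate 1 of Myd88 no longer stood apart. Myd88 overlaps Acaa1a (3108 UMIs) on the opposite strand and Slc22a14 (0 UMIs) on its own, and the sources used here do not say whether counting used the strand.

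**Figure D1:**
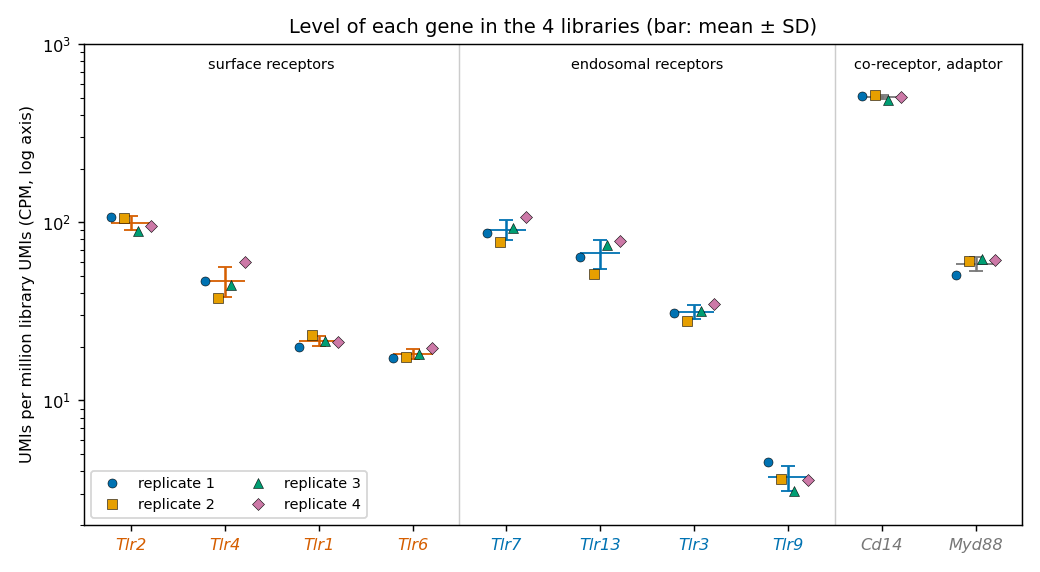
Level of the 10 genes in CPM (log axis) in each library, with replicates 1 to 4 as coloured symbols and the mean ± SD (n = 4) as bars, grouped into surface receptors, endosomal receptors, and the co-receptor Cd14 with the adaptor Myd88. Cd14 lies near 503 CPM in every library, Tlr9 between 3.08 and 4.54 CPM, and the other genes between 17.3 and 106 CPM.

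Ordered by mean level, the genes ran Cd14, Tlr2, Tlr7, Tlr13, Myd88, Tlr4, Tlr3, Tlr1, Tlr6 and Tlr9. These CPM come from 3′ tags, 1 per molecule, and were not divided by transcript length. Cd14 exceeded Tlr2 by 2.34 on the log2 scale, in 4 of 4 libraries and without overlap of their ranges. The ranges of Tlr4 and Tlr3, of Tlr3 and Tlr1, of Tlr1 and Tlr6, and of Tlr6 and Tlr9 did not overlap either. Tlr2 and Tlr7 could not be ordered, since Tlr2 was higher in 2 of 4 libraries and Tlr7 in the others. The ranges of Tlr7 and Tlr13 overlapped, yet Tlr7 was higher within each of the 4 libraries, by 0.45 ± 0.12 on the log2 scale. Tlr13 was above Myd88 in 3 of 4 libraries, and Myd88 above Tlr4 in 4 of 4, each with overlapping ranges. Of the 10 genes, 5 were highest in replicate 4, as were 31.8% of the 7656 genes at 10 CPM or more.

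Surface and endosomal receptors took nearly equal parts of the receptor UMIs. The 4 surface receptors summed to 190, 185, 173 and 195 CPM, a mean of 186 ± 9.65 CPM, and the 4 endosomal receptors to 186, 160, 203 and 223 CPM, a mean of 193 ± 26.4 CPM. Surface receptors made up 50.6% of receptor UMIs in replicate 1, 53.5% in replicate 2, 46.1% in replicate 3 and 46.7% in replicate 4, a mean of 49.2% ± 3.49 (n = 4). The exact 95% binomial interval was 51.9% to 55.1% in replicate 2 and 45.1% to 48.4% in replicate 4, so the libraries fell on both sides of equal shares beyond counting error. No library stood apart by the range test for either sum or for the share. Tlr2 alone supplied 53.3% ± 4.15 of surface UMIs, and Tlr7 with Tlr13 supplied 81.7% ± 1.26 of endosomal UMIs. Counting all 12 mouse receptors put the surface share at 46.9%.

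**Figure D2:**
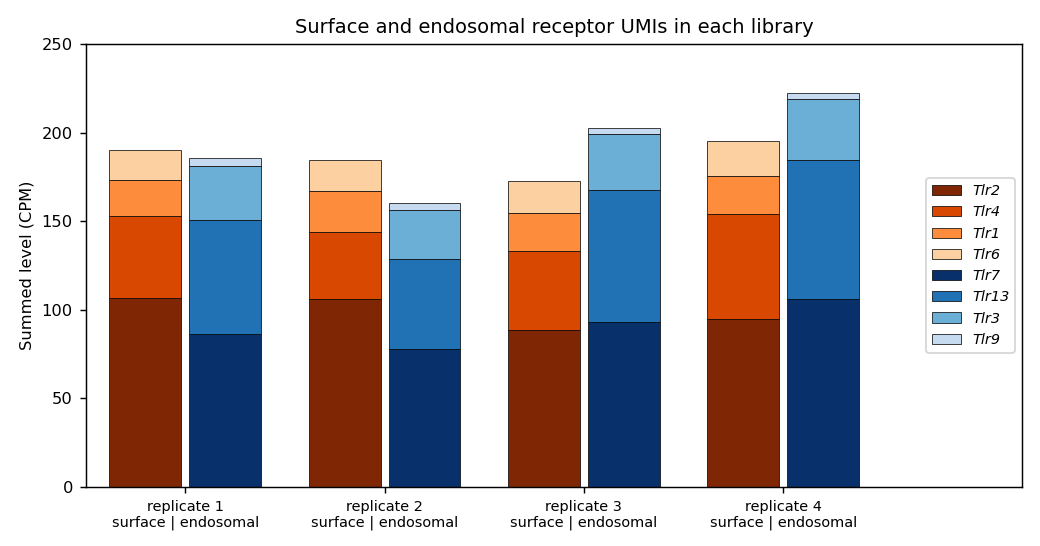
Summed level (CPM) of the 4 surface receptors (left bar, orange) and the 4 endosomal receptors (right bar, blue) in each of the 4 libraries, stacked by gene. The surface sum lies between 173 and 195 CPM, while the endosomal sum runs from 160 CPM in replicate 2 to 223 CPM in replicate 4.

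Single cells carried few of these molecules. To compare libraries of different depth, each cell was thinned to 1000 UMIs, which left 12737 cells and left out 265 shallower ones. At that depth Cd14 gave a UMI in 39.5% ± 1.37 of cells (n = 4 libraries), Tlr2 in 9.32% ± 0.646, Tlr7 in 8.70% ± 1.21, Tlr13 in 6.62% ± 1.13, Myd88 in 5.92% ± 0.515 and Tlr4 in 4.73% ± 0.958. Tlr3, Tlr1 and Tlr6 gave one in 2.91% ± 0.416, 2.04% ± 0.216 and 1.74% ± 0.169 of cells, and Tlr9 in 0.385% ± 0.0763, or 50 cells in all. The order of detection was the order of level. Without thinning, the shares were 67.6% ± 6.90 for Cd14 and 21.1% ± 4.33 for Tlr2 and followed the depth of the library. The most UMIs in 1 unthinned cell were 12 for Cd14 and 10 for Tlr2. In thinned cells the variance of each gene's counts divided by their mean averaged between 0.983 and 1.07, where 1 is the value of pure counting.

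A UMI of any of the 8 receptors was present in 31.6% ± 2.65 of thinned cells. Cells with surface receptor UMIs alone made up 13.9% ± 0.849, cells with endosomal receptor UMIs alone 14.8% ± 1.93, and cells with both 2.81% ± 0.503. The endosomal-only share was lowest in replicate 2 (12.5%) and highest in replicate 4 (17.2%). At 2000 UMIs per cell the share with any receptor UMI was 52.0%, and without thinning 59.1%, so these shares measure depth together with expression, and a cell without a UMI is not a cell without the receptor. No cell type that lacks these genes was present in the sort, so the share that free RNA alone would give was not measured.

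**Figure D3:**
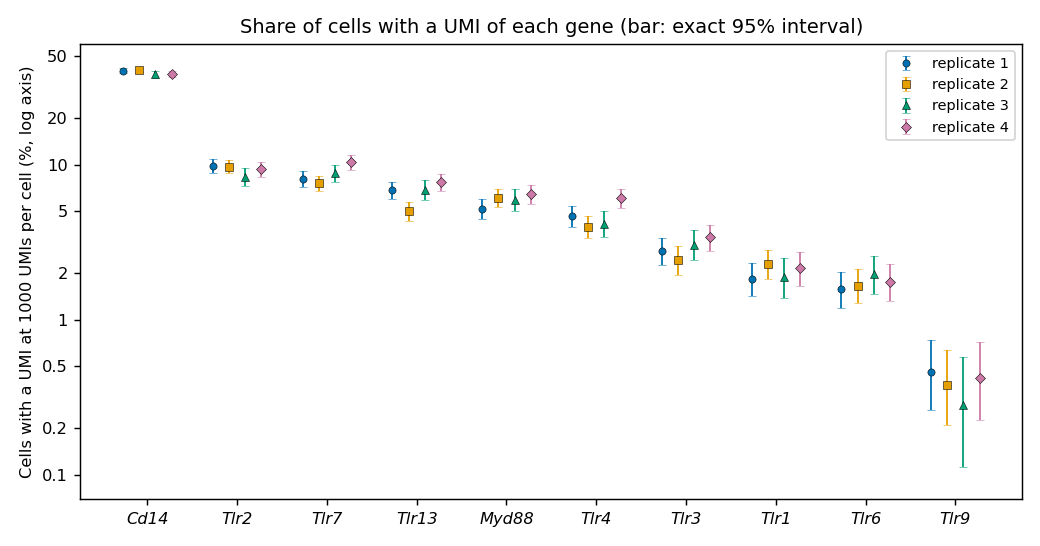
Percentage of cells with at least 1 UMI of each gene (log axis) after thinning every cell to 1000 UMIs, by library, with exact 95% binomial intervals that cover counting error only. Cd14 lies at 38.3% to 40.9% of cells, Tlr2 at 8.39% to 9.79% and Tlr9 at 0.281% to 0.458%.

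The rest of the pathway, 43 genes, was present at very different levels, and 30 of them reached 10 CPM. Of the other receptors, Tlr12, an endosomal receptor that pairs with the profilin receptor Tlr11, had 23.2 ± 3.23 CPM, the flagellin receptor Tlr5 had 4.50 ± 0.664 CPM, and Tlr8 and Tlr11 had 2 and 3 UMIs in all. The other adaptors were also low: Ticam2 had 26.1 ± 0.939 CPM, Tirap, which bridges TLR2 and TLR4 to MYD88, 23.0 ± 1.42 CPM, Ticam1, the adaptor of TLR3, 12.2 ± 0.795 CPM, and Sarm1 1.50 ± 0.674 CPM. Among the accessory molecules of surface receptors, Ly96 had 124 ± 8.50 CPM, and Cd180 and its partner Ly86 (MD-1) had 152 ± 17.4 and 1867 ± 93.0 CPM. Lbp, which delivers lipopolysaccharide to CD14, had no UMI, which allows up to 3 UMIs over the 4 libraries, and Cd36 had 1.43 ± 0.708 CPM. All 6 genes of the group that folds, escorts or cleaves endosomal receptors or acts in their compartment had means above 100 CPM: Unc93b1, which escorts them from the endoplasmic reticulum, had 1411 ± 63.3 CPM, the chaperones Hsp90b1 and Cnpy3 had 839 ± 77.8 and 165 ± 8.49 CPM, the endolysosomal transporter Slc15a4 had 105 ± 1.49 CPM, and the proteases Lgmn and Ctss had 6640 ± 194 and 9584 ± 475 CPM. Of the 30 genes, Ly96 (lowest in replicate 4) and the kinase Map3k7 (lowest in replicate 2) had a library apart by the range test, which set a library apart for 4.62% of all genes.

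Levels were then compared between cell states within each library. A state was defined as a fixed share of a library's thinned cells, those with the most UMIs of a marker list, and its summed UMIs were compared with those of the other cells of the same library by edgeR's quasi-likelihood test with the library as a block. None of the 10 genes was in a list, the genes of the list that chose the cells were left out of its fit, and adjusted p-values (Benjamini-Hochberg) run over all genes fitted. The lists were border markers (1% of cells, 128 in all, taken out before the others were chosen), interferon-responsive genes (2%, 255 cells), the chemokines Ccl3 and Ccl4 (2%, 255 cells), 7 genes of the Lpl Cst7 group of lipid-handling and lysosomal genes (2%, 255 cells) and immediate early genes (10%, 1274 cells). A state is the top of a range and not a cell type. In the Ccl3 Ccl4 and Lpl Cst7 states the median cell had 1 or 2 list UMIs in every library, nearly all cells lay within 1 UMI of the limit, and in replicate 1 the Ccl3 Ccl4 state included 4 cells with none.

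In the main tests, Tlr2 was the 1 gene of the 9 fitted that passed in any state. In the Ccl3 Ccl4 cells Tlr2 measured 172, 236, 207 and 113 CPM in replicates 1 to 4, against 105, 103, 86.7 and 93.4 CPM in the other cells. It was higher in the state in 4 of 4 libraries, and the ranges did not overlap, although the difference in replicate 4 was small. Tlr2 rose by 0.90 on the log2 scale (SE 0.15, 95% interval 0.60 to 1.20, 1.87-fold), with an adjusted p of 2.06e-06 in edgeR's quasi-likelihood test. In this state 0.64% of 7654 genes passed the test and 0.523% rose. In cells thinned to 1000 UMIs, 36 of 255 Ccl3 Ccl4 cells (14.1%) had a Tlr2 UMI against 9.33% of the other cells. By library the share was 11.4%, 20.5%, 8% and 14.5% against 9.79%, 9.53%, 8.44% and 9.27%, so it was higher in 3 of 4 libraries and furthest apart in replicate 2. Tlr2 passed the test in this state under 8 of 12 alternatives. The adjusted p rose to 0.0661 without replicate 2, the library with the largest level in the state, and to 0.0536 without the library block, with changes of 0.71 and 0.92. With a minimum of 3 list UMIs, an alternative added after the data were seen that left 3 to 13 cells per library, the change was 1.01 with an adjusted p of 0.367. The summed border markers ran from 60.2 to 158 CPM in these cells and from 65.2 to 229 CPM in the others, and the median depth from 1914 to 2977 UMIs in them and from 1916 to 2940 in the others. The 7 immediate early genes had 1114 to 3711 CPM against 935 to 2415 CPM, and their part in the result was not tested.

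The other genes did not pass the test in the Ccl3 Ccl4 cells. Cd14 came closest, with 497, 602, 687 and 633 CPM in the state against 511, 514, 482 and 502 CPM, a change of 0.25 (SE 0.09, adjusted p = 0.242 in edgeR's test) and a higher level in 3 of 4 libraries. Tlr1, the partner of TLR2, had 19.9, 51.6, 47.1 and 11.3 CPM, above the other cells in 2 of 4 libraries, and a change of 0.62 (95% interval -0.08 to 1.31). The interval of Tlr7 was -0.52 to 0.25. The median change over the 9 genes was 0.22, and over all genes it was -0.0045. Surface receptors took 64.7%, 67.2%, 55.9% and 50.7% of receptor UMIs in these cells, a mean of 59.6% ± 7.68 against 48.9% ± 3.31 in the other cells, a share that counts the same Tlr2 UMIs and was not tested.

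Tlr2 also passed the test in the Lpl Cst7 cells. It measured 262, 160, 265 and 171 CPM in replicates 1 to 4, against 103, 105, 85.5 and 92.1 CPM in the other cells, without overlap. Tlr2 rose by 1.10 on the log2 scale (SE 0.16, 95% interval 0.78 to 1.43, 2.15-fold, adjusted p = 4.05e-06 in edgeR's test), in a state where 1.23% of 7654 genes passed the test and 1.12% rose. It passed the test under each of the 9 alternatives that gave an adjusted p, with changes of 0.82 to 1.56. A minimum of list UMIs, under which the call in the Ccl3 Ccl4 state was lost, was not tried in this state. DESeq2 gave a change of 1.15 (SE 0.21) and no adjusted p, because its filter on low counts set it aside. Of the Lpl Cst7 cells 41 of 255 (16.1%) had a Tlr2 UMI at 1000 UMIs per cell, against 9.28% of the others, and the share was higher in 4 of 4 libraries. This state shared 3 to 5 cells per library with the Ccl3 Ccl4 state, so the cells taken were largely separate, but the other cells they were compared with were nearly the same. The 2 results on Tlr2 therefore share their baseline and are not independent. The marker lists moved together as well: the 7 Lpl Cst7 genes summed to 46.4 to 348 CPM in Ccl3 Ccl4 cells against 34.1 to 37.9 CPM in the others, and Ccl3 with Ccl4 to 50.9 to 575 CPM in Lpl Cst7 cells against 25.1 to 111 CPM. Markers of other cells also moved with the Lpl Cst7 state: the border markers summed to 102, 141, 219 and 1690 CPM in these cells against 63.6 to 195 CPM in the others, and the 8 microglial markers to 26135 to 32219 CPM against 33417 to 34902 CPM. Without replicate 4, where the border markers were highest, the change of Tlr2 was 1.15 with an adjusted p of 4.69e-06.

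No other gene passed the test in the Lpl Cst7 cells. Tlr1 measured 21.8, 32.9, 54.8 and 46.7 CPM against 20.3, 22.9, 20.7 and 20.6 CPM, higher in 4 of 4 libraries, with a change of 0.88 (SE 0.34, adjusted p = 0.307 in edgeR's test) that rested on 25 UMIs. Cd14 had 557 ± 32.4 CPM against 503 ± 14.0 CPM, a change of 0.16 (95% interval -0.06 to 0.38). Tlr7 had a change of -0.20 and Myd88 of -0.04, and the median over the 9 genes was -0.04 against -0.0069 over all genes. Surface receptors took 63.0% ± 3.80 of receptor UMIs here, against 48.8% ± 3.59 in the other cells. Tlr2 gave 132 of the 307 receptor UMIs in the state, so this share counts the same UMIs, and it was not tested.

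**Figure D4:**
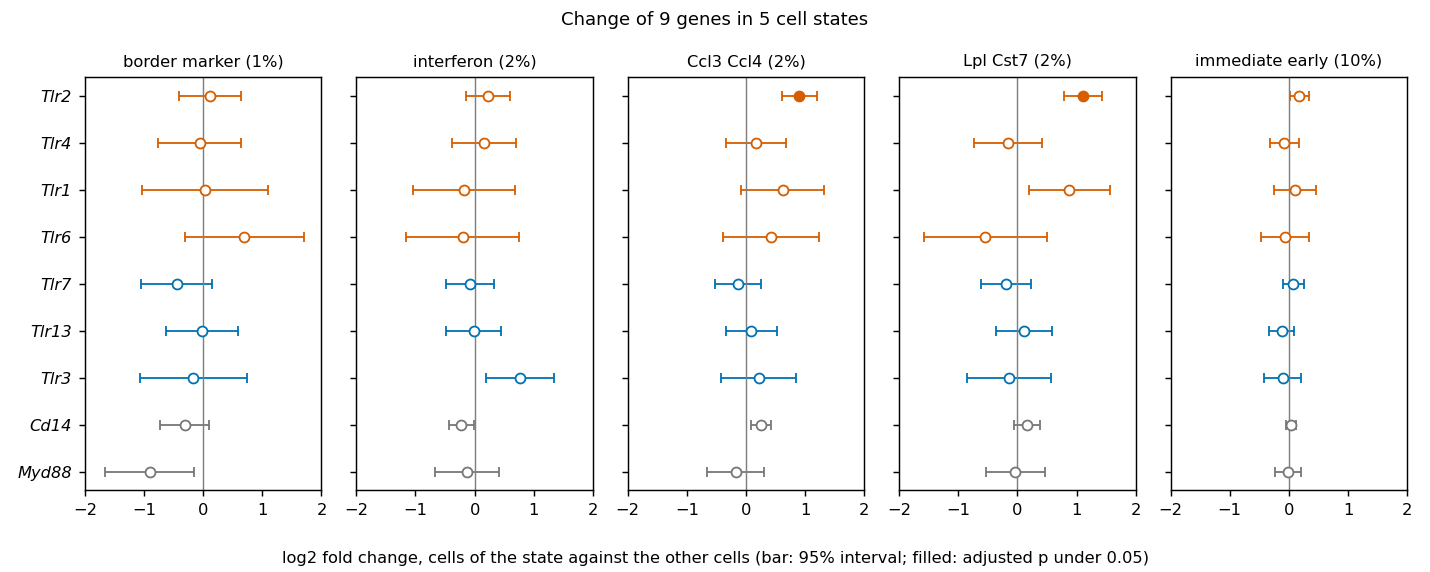
Change of 9 of the 10 genes (log2 fold change, cells of the state against the other cells of the same libraries, 95% intervals) in each of 5 cell states, with surface receptors in orange, endosomal receptors in blue, and Cd14 and Myd88 in grey. Filled points passed an adjusted p of 0.05 in edgeR's test, and they are Tlr2 in the Ccl3 Ccl4 state (0.90) and in the Lpl Cst7 state (1.10).

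In the interferon state, Tlr3 and Cd14 differed in opposite directions, and whether they passed the test depended on how strictly the cells were chosen. Interferon-responsive cells were the top 2% of each library by 9 genes such as Ifit3 and Isg15. At that share none of the 9 genes passed (1.9% of 7651 genes did). Tlr3 had 61.4, 28.5, 46.2 and 69.2 CPM in the state against 29.9, 28.0, 31.2 and 34.3 CPM, a change of 0.77 (SE 0.29, adjusted p = 0.269 in edgeR's test). Cd14 had 417 ± 39.2 CPM against 506 ± 13.3 CPM, lower in the state in 4 of 4 libraries, with a change of -0.22 (SE 0.11, adjusted p = 0.509).

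The list UMIs of the last cells taken into the interferon state were only 2, so a minimum of 5 list UMIs was added after the data were seen, which left 29, 15, 13 and 10 cells. In those cells Tlr3 measured 111, 116, 118 and 139 CPM against 29.9, 27.5, 31.4 and 34.8 CPM. The ranges were far apart, but the levels in the state rested on 7, 5, 4 and 4 UMIs. Tlr3 rose by 1.78 on the log2 scale (SE 0.46, 95% interval 0.87 to 2.69, adjusted p = 0.00477 in edgeR's test), where 4.3% of genes passed the test and 1.79% rose. Cd14 measured 300, 325, 324 and 208 CPM against 511, 516, 484 and 506 CPM, and fell by 0.96 on the log2 scale (SE 0.22, adjusted p = 0.000598), where 2.51% of genes fell. The median change over all genes was -0.35 in this comparison. Both calls held without replicate 4, with changes of 1.82 and -0.81. With the top 1% of cells, Tlr3 changed by 1.35 (adjusted p = 0.0173) and Cd14 by -0.47 (adjusted p = 0.12), and with the top 4% Tlr3 changed by 0.31 (adjusted p = 0.752).

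The makeup of these interferon cells differed from that of the other cells. Their microglial markers summed to 15543 to 24172 CPM against 33340 to 34843 CPM, and their border markers to 581 to 2984 CPM against 86.4 to 187 CPM, while the 4 neutrophil and 4 dendritic cell markers were at 0 in them. The part of these differences in the values of Tlr3 and Cd14 was not tested. No Tlr9 UMI was found in the 255 interferon cells, nor in the stricter selection, where 3 UMIs is the limit that a count of 0 allows. Tlr7, whose product induces interferon, had a change of -0.08 (95% interval -0.49 to 0.33) in the top 2% of cells.

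**Figure D5:**
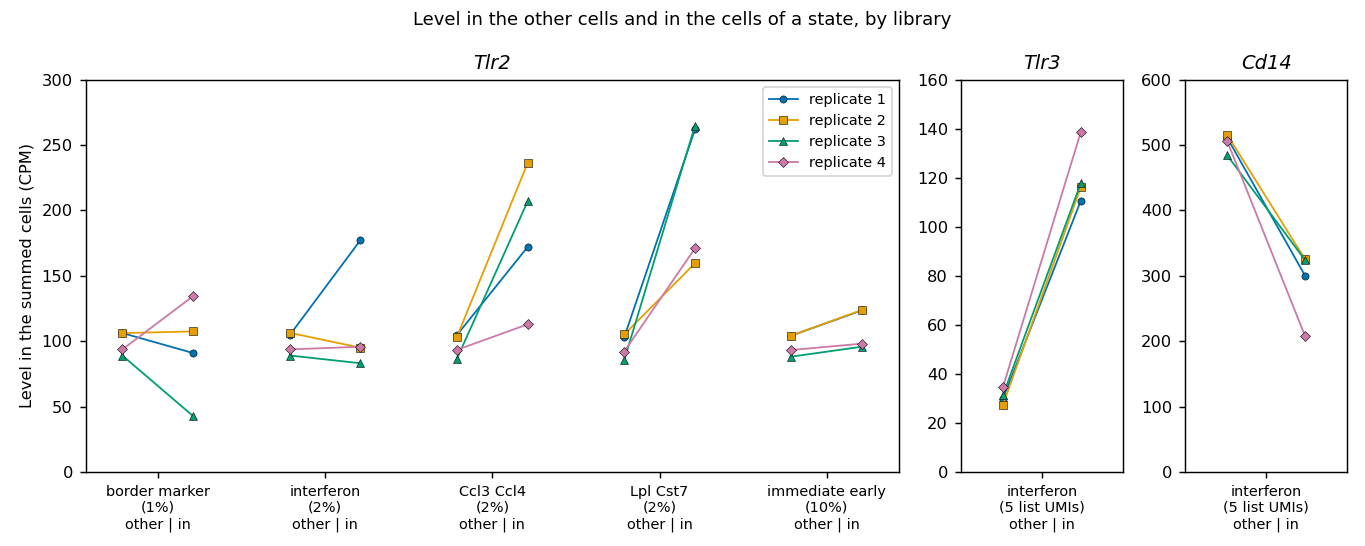
Level (CPM) in the other cells and in the cells of a state, joined by a line for each library, for Tlr2 in 5 states and for Tlr3 and Cd14 in interferon cells with at least 5 list UMIs. All 4 lines rise for Tlr2 in the Ccl3 Ccl4 and Lpl Cst7 states and for Tlr3, and all 4 fall for Cd14.

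Immediate early genes such as Fos and Jun mark cells that responded to a stimulus, dissociation included, and their level was highest in replicate 4. None of the 9 genes passed the test in this state, the best measured of the 5 with 249 to 367 cells per library, in which 0.392% of 7650 genes did. Tlr2 had 124, 124, 95.8 and 98.2 CPM against 104, 104, 88.2 and 93.3 CPM, higher in 4 of 4 libraries. Its change was 0.18 (95% interval 0.01 to 0.34, adjusted p = 0.684 in edgeR's test), and with 20% of cells taken it was 0.23 with an adjusted p of 0.0439. The intervals of Cd14 (-0.04 to 0.12), Tlr7 (-0.10 to 0.25) and Myd88 (-0.24 to 0.20) were narrow. Tlr4, which was highest as a whole in replicate 4, had 46.9 CPM in the immediate early cells of that library and 61.0 CPM in its other cells.

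Border marker cells were too few and too mixed to place most of the genes. The top 1% of cells had a median of 99 list UMIs per 1000 in replicate 4 but of 3, 3 and 4 in replicates 1 to 3, so in those libraries most of the cells taken carried few border markers. None of the 9 genes passed the test, where 6.47% of 7648 genes did. Myd88 had 26.5 ± 14.4 CPM in the state against 58.9 ± 5.59 CPM in the other cells, lower in 4 of 4 libraries, with a change of -0.90 (SE 0.38, adjusted p = 0.174 in edgeR's test) on 14 UMIs. Cd14 had 356 ± 67.6 CPM against 504 ± 13.3 CPM, also lower in 4 of 4. In the 7 to 36 cells per library with at least 10 list UMIs, Cd14 had 294 ± 94.7 CPM against 503 ± 13.8 CPM, a change of -0.69 (adjusted p = 0.0672), and Myd88 had 59.4 ± 41.6 CPM against 58.5 ± 5.61 CPM. In those cells 10.3% of all genes passed the test and 4.01% rose. The median change over all genes was -0.06 with TMM scaling and -0.25 with library totals in the top 1% of cells, and the calls were 353 higher and 142 lower with the former but 269 higher and 312 lower with the latter. Levels of Tlr2 in this state were 90.9, 108, 42.7 and 135 CPM, on both sides of its level in the other cells.

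Of the 30 pathway genes fitted, few passed the test in any state. Nfkbia, which encodes the inhibitor IκBα and is itself a target of NF-κB, rose in 4 of the 5 states in edgeR's test: by 0.61 in the border marker state (adjusted p = 0.0488), 0.48 in the Ccl3 Ccl4 state (adjusted p = 0.00513), 0.57 in the Lpl Cst7 state (adjusted p = 0.00808) and 0.34 in the immediate early state (adjusted p = 1.12e-05). In the immediate early cells Nfkbia measured 358, 255, 262 and 279 CPM against 283, 189, 218 and 225 CPM. The call in the border marker state was lost under each of the 12 alternatives, while that in the immediate early state was lost only without the library block (adjusted p = 1) among its 10. The call held in 5 of 12 alternatives in the Ccl3 Ccl4 state (adjusted p up to 0.726) and in 6 of 10 in the Lpl Cst7 state (adjusted p up to 0.168). Without the block the adjusted p was 0.512 in the Ccl3 Ccl4 state and 0.132 in the Lpl Cst7 state, and without replicate 4 it was 0.46 and 0.0826.

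In border marker cells, Cd180, a surface receptor relative of TLR4, and the protease Lgmn fell. Cd180 had 114, 79.2, 68.3 and 26.9 CPM against 150, 128, 163 and 168 CPM and fell by 0.90 on the log2 scale (SE 0.27, adjusted p = 0.0239 in edgeR's test), and Lgmn fell by 0.84 (SE 0.24, adjusted p = 0.0156). In this state 1.86% of genes fell. Of 12 alternatives Cd180 passed in 8 and Lgmn in 9. The adjusted p of Cd180 was 0.127 with DESeq2, 0.263 without replicate 3 and 0.218 without replicate 4, and that of Lgmn was 0.211 without replicate 1, 0.164 without replicate 3 and 0.0856 with 2% of cells taken. The 8 microglial markers were lower in these cells too, at 7007 to 24025 CPM against 33354 to 34710 CPM in the others, and their part in the falls was not tested. In the cells with at least 10 border list UMIs, where 6.29% of genes fell, 6 of the 30 pathway genes fell: Lgmn by 1.74, Cd180 by 1.82, Peli1 (a ubiquitin ligase) by 1.18, Ly86 by 1.06, Ctss by 0.77 and Unc93b1 by 0.74. The median change over all genes there was -0.41, and the microglial markers summed to 6366 to 15985 CPM against 33243 to 34780 CPM. Peli1, Ctss and Unc93b1 passed the test in this selection alone of 12 alternatives, and the adjusted p of Cd180 in it was 0.255 without replicate 4. In the interferon state at 2% none of the 30 passed, and in its stricter selection Lgmn fell by 0.53 (adjusted p = 0.0036). In the 3 to 13 cells per library with at least 3 Ccl3 Ccl4 UMIs, 2 of the 30 passed, where 0.745% of all genes fell. They were Lgmn, lower by 0.74, and Ctss, lower by 0.69, with lower levels in 2 and 3 of 4 libraries. The median change over all genes there was -0.58, in sums of only 8974 to 38256 UMIs per library. The part of such a change, or of the scaling of small sums, in the 2 falls was not tested.

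The genes whose level followed each receptor most closely were sought among the 7656 genes at a mean of 10 CPM or more. The search used 20 sums, the 4 libraries in each of the 5 states. The sums share cells and libraries, so the correlations are descriptions. For Tlr2 they were Dzip3 (Pearson's r 0.78), the lysosomal protease Ctsb (0.78) and Mesdc1 (0.75). For Tlr4 they were Ighm (0.81), Tpd52l2 (0.80) and Fam126a (0.75), and for Tlr3 Stoml1 (0.80), Stoml2 (0.78) and Rsrc2 (0.75). For Tlr7 they were Cxxc1 (0.94), Urm1 (0.93) and Accs (0.91). Tlr7 had 1 UMI in the border marker cells of replicate 1, and the weight of that sum in r was not tested. Tlr13 was nearest to Ccnl2 (0.77), Syncrip (0.74) and Abcf1 (0.72). Cd14 was nearest to Nxt2 (0.90), Alkbh1 (0.86) and Oxld1 (0.85), and Myd88 to Tbxas1 (0.87) and Zfp800 (0.85). Spearman's rho of the named pairs was lower, between 0.53 (Tlr4 with Fam126a) and 0.87 (Cd14 with Nxt2). None of the 10 genes was among the nearest 3 of another.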

How the data were processed

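The deposited values were UMI counts per gene and cell, 1 matrix per library. Per the labels and the study's methods, the authors prepared 10x Genomics 3′ libraries and counted them with Cell Ranger 2.2.0 on mm10 (GRCm38) and a filtered Ensembl annotation; the counts were not normalised. Replicates 1 to 4 follow the order of the sample titles. With the library as a block, p-values of the state tests rest on the variation left after differences between libraries are taken out. edgeR estimates that variation largely from all genes fitted together. A p-value is therefore not a measure of how far 1 gene's own difference varied between the libraries.

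The 10 genes and all marker and pathway lists were chosen with earlier results of these data known. Clec7a, named in the Lpl Cst7 list, was not used here. Cells were kept from 400 detected genes upward and up to 10% of UMIs from mitochondrial genes and summed per library as CPM; no doublets were removed and no clusters were made. Shares of cells used cells thinned to 1000 UMIs (random seed 7). Library levels were examined with Dixon's range test on log2(CPM + 1), 2-sided at 95%. States were tested on 8 sums each with edgeR 4.0.16 (TMM, quasi-likelihood, library block, genes at a mean of 10 CPM or more) in R 4.3.3, with DESeq2 1.42.0 as an alternative. Both sums of a library come from the same mouse, which is the pairing behind the block. The fit was tested before use on simulated counts whose library effects were the same in both sums of a library. That test does not show how the fit behaves where the difference varies between libraries. Intervals are exact 95% Poisson or Clopper-Pearson intervals, and they and the floor of 3 UMIs cover counting error only.

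Named genes were all 10 members; the other receptors, adaptors, co-receptors and endosomal proteins of the pathway; its remaining genes past an adjusted p of 0.05 in a state, at most 5 a state; and, for members at 30 CPM or more, the 3 genes nearest by Pearson's r. A gene that this rule names is not reported here. Coordinates are from GENCODE M21 (GRCm38). Upstream sequences are from RefSeq, where 7 of the 10 genes were matched and used.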

Additional observations from a re-analysis of the deposited data

Results flagged for a closer look

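A range test over the 4 libraries set 1 library apart for 3 of the genes examined, where chance alone sets a library apart for about 1 group in 20 and the same test did so for 4.62% of all genes at 10 CPM or more. Myd88 was lowest in replicate 1 (50.3 CPM against 60.2 to 61.8 CPM in the others, ratio 0.870). Ly96, the MD-2 co-receptor of TLR4, was lowest in replicate 4 (111 CPM against 127 to 129 CPM, ratio 0.908), the library in which Tlr4 itself was highest. The kinase gene Map3k7 was lowest in replicate 2 (9.14 CPM against 11.1 to 11.3 CPM, ratio 0.905), on 103 UMIs.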

How the results depend on the processing

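Lost calls of Tlr2, Nfkbia, Cd180 and Lgmn are named or counted with the results. The surface share ran from 47.8% to 50.3% with 1 library left out. No library was apart for any of the 10 genes (0) with cells of at least 1000 genes. The share of cells with a receptor UMI was 52.0% at 2000 UMIs and 59.1% without thinning. Genes past an adjusted p of 0.05 numbered 495 in the border marker state, 145 in the interferon, 49 in the Ccl3 Ccl4, 94 in the Lpl Cst7 and 30 in the immediate early state. Without the replicate block, which pairs both sums of a library, they were 491, 88, 4, 62 and 0. In the immediate early state 232 genes had an unadjusted p under 0.05 without the block. DESeq2 with the block gave 105 genes there at an unadjusted p under 0.05, and 5 at an adjusted p under 0.05. Leaving out 1 library gave 256 to 542, 89 to 145, 19 to 46, 58 to 114 and 18 to 23, lowest without replicate 3, 1, 4, 3 and 4. Without the filter on low counts they were 875, 277 and 237 in the border marker, interferon and Lpl Cst7 states. DESeq2 called 21 in the Ccl3 Ccl4 state, and the top 1% of Lpl Cst7 cells gave 205. The minimum of list UMIs, added after the data were seen, gave 788 and 329 in the border marker and interferon states, and without replicate 4 it gave 272, 240 and 125 in these and the Ccl3 Ccl4 state. Nfkbia in the border marker state turned to -0.52 in that last setting. Of 490 changes of the 9 fitted genes under alternatives, 63 turned sign without passing the test in either setting. The causes were not tested. Depth limits Tlr9 and the small states, where most genes rest on few UMIs.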
